A study of Homo sapiens with 18 samples.

Results

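The 10 genes described here are used as markers of mesenchymal and neural crest stem and progenitor cells. All but NES, which codes for an intermediate filament, code for proteins of the cell surface. They are NT5E (CD73), CD44, THY1 (CD90), ENG (CD105), MCAM (CD146), ALCAM (CD166), PDGFRA, PDGFRB, NGFR (CD271) and NES (nestin). They were picked by symbol, with earlier results of these data known, and all 10 were found in each deposited table of 58381 rows. The tables cover 3 established lines of Ewing sarcoma, a sarcoma of bone and soft parts driven by a fusion of EWSR1 to the ETS transcription factor FLI1. In TC-32, TC-71 and A673 alike, 3 libraries came from cells transfected with siNeg, a negative control siRNA, and 3 from cells transfected with siFLI1, a single siRNA against FLI1, both at 20 nM with the same lipid reagent. TC-32 and TC-71 were grown in RPMI and A673 in DMEM, and the columns of the first pair carry 48 h while those of A673 carry no time. The line of those 12 libraries rests on the name of their table. Total counts per library lay between 114564479 and 120993595 in A673, between 24102487 and 33669271 in TC-32 and between 19685354 and 37234528 in TC-71, so low levels are measured more finely in A673. The labels do not say that the replicates were separate cultures, so p-values measure the spread between these samples, which may be technical. The table of TC-71 was counted with another tool than the other two. Line and table cannot be told apart, nor can medium where A673 is compared with another line.

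The Ewing fusion protein activates some genes and represses others, and the cell in which the tumour arises is debated, with mesenchymal stem cells and neural crest cells as the main candidates. NT5E, THY1 and ENG are the classical trio used to define cultured mesenchymal stromal cells, which also carry CD44, ALCAM and MCAM. NGFR and NES mark migrating neural crest and neural progenitors, although NGFR is also used to sort stromal cells from marrow, and the PDGF receptors mark mesenchyme from both sources. In bulk RNA, a change in the number of cells that carry a marker and a change in RNA per cell cannot be told apart.

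The stretches before the start sites are shown for 4 members with unlike responses, since ETS factors bind at a GGAA core. They were chosen after their values were seen, among the members with an entry in the promoter table. NT5E rose in each line by at least 2-fold, CD44 went from near 0 in TC-71, ALCAM changed in opposite directions and PDGFRB changed by unlike amounts. The sequences are the 250 bases before the RefSeq start site, GRCh38.p14, read 5′ to 3′ on the strand of the gene. Capitals mark GGAA, or TTCC where the core lies on the other strand. They cover chr6:85449833-85450082 on the plus strand for NT5E, chr11:35138921-35139170 on the plus strand for CD44, chr3:105366659-105366908 on the plus strand for ALCAM and chr5:150155846-150156095 on the minus strand for PDGFRB.
NT5E: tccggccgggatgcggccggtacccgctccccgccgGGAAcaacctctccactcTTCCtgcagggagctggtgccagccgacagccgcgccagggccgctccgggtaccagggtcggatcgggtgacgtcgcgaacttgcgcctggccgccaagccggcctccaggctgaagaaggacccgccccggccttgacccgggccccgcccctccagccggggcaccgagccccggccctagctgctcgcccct
CD44: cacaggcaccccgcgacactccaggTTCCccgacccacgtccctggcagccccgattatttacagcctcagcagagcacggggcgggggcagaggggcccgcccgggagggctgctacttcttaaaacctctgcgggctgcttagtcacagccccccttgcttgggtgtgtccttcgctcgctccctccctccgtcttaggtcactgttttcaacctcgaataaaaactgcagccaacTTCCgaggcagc
ALCAM: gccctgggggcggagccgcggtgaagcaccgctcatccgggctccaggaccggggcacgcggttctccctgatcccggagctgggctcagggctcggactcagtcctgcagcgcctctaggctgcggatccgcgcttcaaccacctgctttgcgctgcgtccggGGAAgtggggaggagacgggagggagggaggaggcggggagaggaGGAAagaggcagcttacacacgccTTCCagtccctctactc
PDGFRB: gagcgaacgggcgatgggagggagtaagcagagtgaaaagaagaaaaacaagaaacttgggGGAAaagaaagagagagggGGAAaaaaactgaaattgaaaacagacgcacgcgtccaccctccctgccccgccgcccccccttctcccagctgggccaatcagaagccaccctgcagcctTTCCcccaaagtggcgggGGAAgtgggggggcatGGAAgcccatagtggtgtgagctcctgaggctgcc

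Of the 10 members, 8 matched the RefSeq promoter table, with 9 windows of 300 bases in all, from 250 before to 50 after a start site. THY1 and NGFR have no entry there. Counting both strands, GGAA occurred 2 times in the window of NT5E, 2 times in CD44, 3 times in ENG, MCAM and ALCAM, 5 times in PDGFRB and 4 times in NES. PDGFRA has a window at each of 2 start sites, with 1 match in the first and 3 in the second. Of the 35116 windows in the table, 95.5% hold at least 1 GGAA, with a median of 3 matches, so these numbers lie around that of any promoter. The tandem GGAAGGAA, a short form of the repeats at which the fusion is known to bind, was in 0 of the 9 windows and in 3.67% of the table. The AP-1 letters TGANTCA occurred 1 time, 32 bases before the first start site of PDGFRA, and in 7.71% of the table. A match is a description of letters only, and the windows say nothing of more distant sites.

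FLI1 itself was lower with siFLI1 in each line, by -2.08 in A673, -1.03 in TC-32 and -1.47 in TC-71 on the log2 scale, and all log2 changes below are likewise fitted log2 fold changes of siFLI1 over siNeg. NT5E, CD44, ENG, MCAM, PDGFRB and NES rose in all 3 lines. ALCAM, THY1 and NGFR changed in every line but not in 1 direction, and PDGFRA rose in the lines in which it was tested. In TC-32, 10 of 10 members passed the test (edgeR's quasi-likelihood test, Benjamini-Hochberg adjusted p under 0.05), 9 higher and 1 lower. The siRNA moved most of the transcriptome there: 81.3% of 16208 genes tested were called, 41.3% higher and 40.1% lower. In TC-71, 9 members passed the filter on low counts and all 9 were called, 7 higher and 2 lower, beside 71.9% of 17085 genes called, 36.8% higher and 35% lower. CD44 passed that filter in TC-71 only through its siFLI1 libraries, and PDGFRA did not pass it. In A673, 10 of 10 were called, 8 higher and 2 lower, beside 71% of 18427 genes called, 36% higher and 35% lower. Most tested genes were called in each line, so a call by itself does not set the members apart. These shares called higher and lower over all genes tested in a line apply to every count over a related list below, also where they are not repeated.

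A change of at least 2-fold was found for 7 members in A673, 6 in TC-32 and 5 in TC-71. Over all tested genes such a change was found for 23.1%, 37.6% and 23.4% in that order. The median log2 fold change of the members was 1.62 in A673, 0.94 in TC-32 and 0.93 over 9 members in TC-71, beside -0.00056, 0.022 and 0.018 over all genes tested. The siNeg and siFLI1 libraries were apart, with no overlap, for every member tested, beside 73.6% of genes tested in A673, 82.5% in TC-32 and 73.8% in TC-71. Among the 14233 genes with a test in every line, the share called higher in each was 19%, against 6 of 9 members. Another 18.8% were called lower in each, against 0 members, and 13.8% were called with mixed directions, against 3 members. At least 2-fold higher in each line were 5.02% of genes and 2 members, NT5E and CD44. CD44, also 1 of the 6 called higher in each line and of the 5 in TC-71, was tested in TC-71 only through its siFLI1 libraries. Being high there was a condition of being counted.

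**Figure D1:**
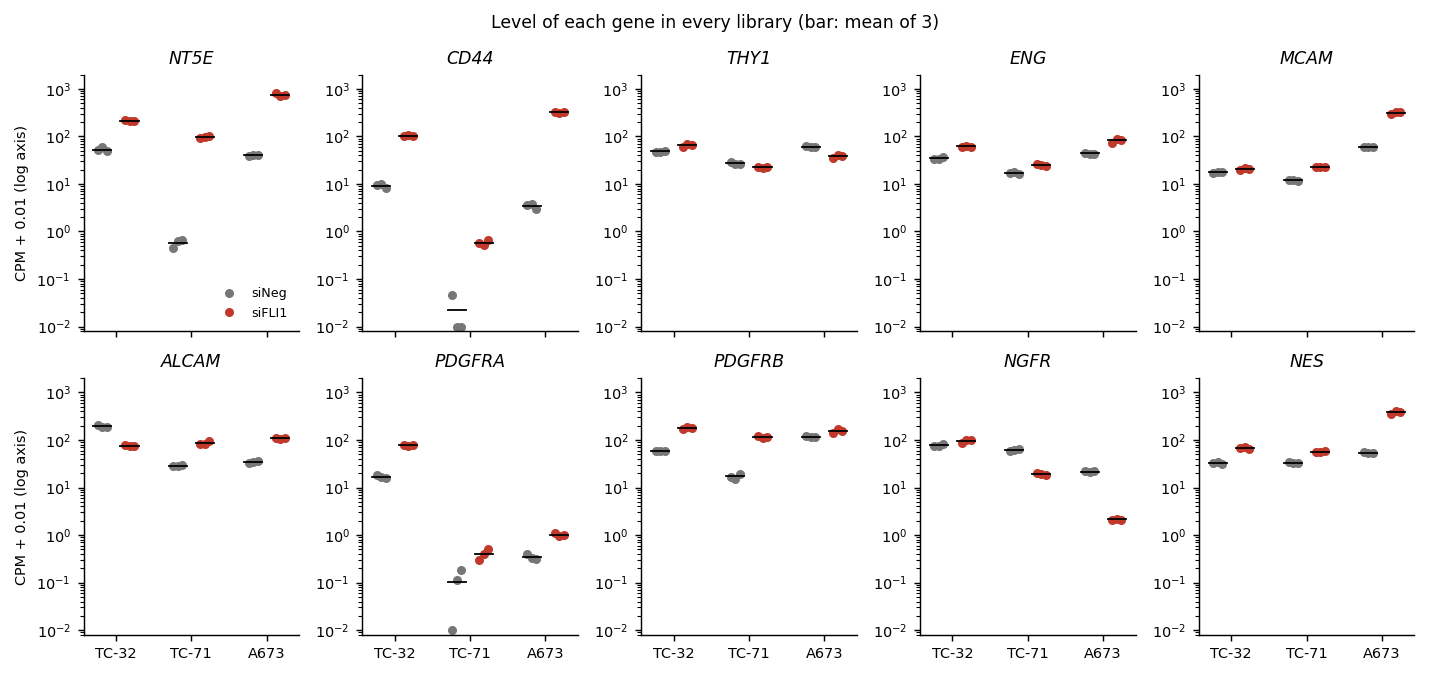
Level of each of the 10 genes in every library, as CPM + 0.01 on a log axis, for siNeg (grey) and siFLI1 (red) in TC-32, TC-71 and A673; each point is 1 library, bars are the mean of 3, and a count of 0 lies at 0.01. The siFLI1 points of CD44 and NT5E lie above the siNeg points in each line, and those of ALCAM lie below them in TC-32 and above them in TC-71 and A673.

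NT5E (ENSG00000135318.11, chromosome 6, 85449584 to 85495791, plus strand) codes for the ecto-5′-nucleotidase that makes adenosine from AMP outside the cell, and positions here and below are from GENCODE release 44, GRCh38. In TC-32 it stood at 50.7, 58.4 and 49.1 CPM (counts scaled to library size by TMM) with siNeg and at 219, 214 and 209.8 CPM with siFLI1. In TC-71 the siNeg libraries held 0.446, 0.608 and 0.659 CPM and the siFLI1 libraries 91.4, 98.5 and 103 CPM. A673 libraries held 38.9, 40.8 and 40.97 CPM of NT5E with siNeg and 805, 717 and 751 CPM with siFLI1. All siFLI1 libraries lay above all siNeg libraries of their line, and TC-71 started from a level far under those of TC-32 and A673. NT5E rose 2.02 log2 units (SE 0.0556, edgeR adjusted p = 3.08e-20) in TC-32, 7.41 log2 units (SE 0.110, edgeR adjusted p = 7.31e-30) in TC-71 and 4.24 log2 units (SE 0.0483, edgeR adjusted p = 2.89e-17) in A673. A larger log2 change was found for 1.80% of tested genes in A673, 10.6% in TC-32 and 0.275% in TC-71. The rise in TC-71 exceeded that in TC-32 by 5.40 (log2; interaction contrast in edgeR, adjusted p = 2.32e-24).

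Among 6 other genes of the adenosine system, 3 of 5 tested rose and 1 fell in A673, 3 of 4 rose in TC-32 and 4 of 4 in TC-71. ADORA2B, the low-affinity adenosine receptor, rose in each line, by 2.81 in A673, 0.26 in TC-32 and 1.58 in TC-71 (log2). ADA, which breaks adenosine down, also rose in each line, by 0.72, 0.82 and 0.71 in that order. ENTPD1 (CD39), which makes the AMP that NT5E uses, rose in TC-71 from 0.526 to 2.03 CPM, having passed the filter only through siFLI1. It held at most 2 counts in any TC-32 library, and in A673 its log2 fold change of -0.61 did not pass the test (edgeR adjusted p = 0.247). The A673 gene that fell was ADORA2A, at a log2 fold change of -0.17.

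CD44 (ENSG00000026508.18, chromosome 11, 35138882 to 35232402, plus strand) is the main receptor for hyaluronan, and its reads from all splice forms are summed in these tables. TC-32 libraries held 9.25, 9.99 and 8.08 CPM with siNeg and 103, 108 and 101 CPM with siFLI1. In A673 the values were 3.63, 3.78 and 3.03 CPM with siNeg and 332, 312 and 321 CPM with siFLI1. In TC-71 they were 0.0371, 0 and 0 CPM with siNeg and 0.573, 0.497 and 0.647 CPM with siFLI1. The siFLI1 libraries were the higher ones in each line without overlap, and TC-71 remained far below the other lines under either siRNA. CD44 rose 3.51 log2 units (SE 0.0708, edgeR adjusted p = 2.36e-23) in TC-32 and 6.53 log2 units (SE 0.0653, edgeR adjusted p = 8.65e-18) in A673. Only 0.505% of tested genes rose by more in A673, and 4.32% in TC-32. In TC-71 the call (edgeR adjusted p = 9.80e-07) rests on 1 count over the siNeg libraries against 51 over the siFLI1 libraries. That is a ratio of 43.9 per library size, with an exact binomial 95% interval from 7.53 to 1767 that covers counting error only. The fitted log2 fold change of 5.03 depends on the prior count, and it became 6.99 without siNeg replicate 1, which holds that count. Genes on the opposite strand share 1.54% of the exon bases of CD44.

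The list of hyaluronan enzymes and receptors and of linkers that tie CD44 to actin did not move one way: of 11 genes, 2 rose and 3 fell among 6 tested in TC-32, 4 rose and 3 fell among 7 in TC-71, and 5 rose and 2 fell among 8 in A673. HAS3, a hyaluronan synthase, rose in each line, by 2.13 in A673, 1.81 in TC-32 and 1.19 in TC-71 (log2). HMMR, a hyaluronan receptor best known from dividing cells, fell in each, at -1.60 in A673, -3.40 in TC-32 and -1.73 in TC-71 (log2). Of the linkers, moesin (MSN) rose in each line and radixin (RDX) fell in each. Ezrin (EZR) fell in TC-32, at -0.27, and rose in TC-71, at 0.54, and in A673, at 0.53. ESRP1, a splicing factor that favours the long forms of CD44, fell in TC-71 from 4.07 to 1.03 CPM and was not tested in the other lines.

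ENG (ENSG00000106991.13, chromosome 9, 127815013 to 127854658, minus strand) is a coreceptor for TGF-beta and BMP ligands. It rose by less than 2-fold in each line. In A673 it was at 45.8, 42.5 and 42.7 CPM with siNeg and 73.96, 88.99 and 85.5 CPM with siFLI1. In TC-32 the siNeg range was 33.4 to 37.3 CPM and the siFLI1 range 58.9 to 64.2 CPM, and in TC-71 these were 15.8 to 17.8 and 23.4 to 26.1 CPM, and in each line all siFLI1 libraries were above all siNeg libraries. ENG rose 0.82 log2 units (SE 0.0605, edgeR adjusted p = 5.22e-12) in TC-32, 0.58 log2 units (SE 0.0759, edgeR adjusted p = 8.72e-08) in TC-71 and 0.92 log2 units (SE 0.0601, edgeR adjusted p = 3.93e-09) in A673. The effects in TC-32 and A673 differed by -0.068 (log2, 95% interval -0.24 to 0.11, edgeR adjusted p = 0.519), a difference that did not pass the test. The difference of 0.24 between TC-32 and TC-71 passed it (edgeR adjusted p = 0.0409), and it lost its call in 13 of 26 alternatives, with values from 0.19 to 0.25. These were limma-voom, the replicate block and single libraries left out: siNeg 1 and 2 and siFLI1 2 and 3 of TC-32, the same of TC-71, and siNeg 2 and 3 and siFLI1 3 of A673. The rise in A673 exceeded the one in TC-71 by 0.31 log2 units (edgeR adjusted p = 0.00617), a call kept in 26 of 26 alternatives. A gene on the opposite strand shares 8.15% of the exon bases of ENG. Of 5 receptors that partner endoglin, 4 of 5 rose and 1 fell in A673, 5 of 5 rose in TC-32 and 4 of 4 tested in TC-71. Over all genes tested, 36%, 41.3% and 36.8% were called higher in that order. TGFBR2, the type II TGF-beta receptor, rose in each line, by 1.93 in A673, 1.73 in TC-32 and 3.65 in TC-71 (log2). ACVRL1 (ALK1), the type I receptor paired with endoglin in endothelium, was low throughout. The gene rose in TC-32, from 0.407 to 1.79 CPM, where only its siFLI1 libraries passed the filter, and fell in A673 from 0.227 to 0.107 CPM.

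The PDGF receptors are tyrosine kinases of mesenchymal cells, and the pair were at very unlike levels. PDGFRB (ENSG00000113721.13, chromosome 5, 150113839 to 150155872, minus strand) was measured at 58.5, 57.5 and 59.5 CPM in the siNeg libraries of TC-32 and at 174, 189 and 182 CPM in its siFLI1 libraries. In TC-71, PDGFRB stood at 16.9, 15.3 and 19.2 CPM with siNeg and 119, 112 and 116 CPM with siFLI1. The A673 values were 119, 115 and 118 CPM and 139.7, 168 and 153 CPM. The siFLI1 libraries were higher in each line with no overlap, and A673, which had the highest siNeg level, moved least. PDGFRB rose 1.64 log2 units (SE 0.0484, edgeR adjusted p = 4.59e-20) in TC-32, 2.74 log2 units (SE 0.0648, edgeR adjusted p = 6.11e-25) in TC-71 and 0.39 log2 units (SE 0.0534, edgeR adjusted p = 1.26e-05) in A673. The rise in A673 was smaller than in TC-71 by 2.39 (log2, edgeR adjusted p = 8.08e-22) and smaller than in TC-32 by 1.28 (edgeR adjusted p = 5.24e-16).

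PDGFRA (ENSG00000134853.11, chromosome 4, 54229280 to 54298245, plus strand) was above 10 CPM in TC-32 alone. It stood there at 18.3, 16.4 and 15.6 CPM with siNeg and 79.9, 75.4 and 77.4 CPM with siFLI1, which did not overlap, and it rose 2.21 log2 units (SE 0.0649, edgeR adjusted p = 4.07e-20). In A673 it was at 0.381, 0.328 and 0.311 CPM with siNeg and 1.11, 0.958 and 0.984 CPM with siFLI1, and the siFLI1 libraries were again the higher and PDGFRA rose there by 1.58 log2 units (SE 0.171, edgeR adjusted p = 1.12e-06). TC-71 held 7 counts of PDGFRA over its siNeg libraries and 36 over its siFLI1 libraries, at 0, 0.101 and 0.173 CPM and 0.286, 0.382 and 0.512 CPM. These do not overlap either. The ratio per library size was 4.43, with an exact binomial 95% interval from 1.94 to 11.8 for counting error only. PDGFRA was not tested in TC-71, where it failed the filter on low counts. Without that filter its log2 fold change was 2.07 (edgeR adjusted p = 0.00369). Another annotated gene on the same strand shares 16.1% of its exon bases, so reads there cannot be assigned to PDGFRA alone.

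Of the 4 PDGF ligands, 2 of 3 tested rose in TC-32, 2 of 3 rose and 1 fell in TC-71, and 3 of 4 rose and 1 fell in A673. PDGFA, which binds PDGFRA above all, rose in each line, in TC-32 from 0.209 to 3.44 CPM, in TC-71 from 0.0169 to 0.864 CPM and in A673 from 1.83 to 15.7 CPM. In TC-32 and TC-71 it passed the filter on low counts only through its siFLI1 libraries, with at most 10 and 1 siNeg counts in a library. PDGFC rose in each line, by 1.09 in A673, 0.61 in TC-32 and 1.72 in TC-71 (log2). PDGFB, the main ligand of PDGFRB, was tested in A673 only, where it rose from 0.161 to 6.31 CPM. PDGFD fell in A673 (-0.41 log2 units) and TC-71 (-0.19), and the TC-71 call was lost without siNeg replicate 1 or siFLI1 replicate 2.

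ALCAM, MCAM and THY1 belong to the immunoglobulin superfamily, and each followed its own pattern across the lines. ALCAM (ENSG00000170017.12, chromosome 3, 105366909 to 105576900, plus strand) mediates contacts between like cells and binds CD6 on T cells. In TC-32, ALCAM was at 204, 192 and 189.8 CPM with siNeg and 78.8, 74.4 and 76.4 CPM with siFLI1. In TC-71 it was at 27.7, 28.7 and 29.4 CPM with siNeg and 82.2, 83 and 95.7 CPM with siFLI1. In A673 it was at 32.8, 34.7 and 35.5 CPM with siNeg and 112, 103 and 109 CPM with siFLI1. The siFLI1 libraries were thus the lower ones in TC-32 and the higher ones in the other lines, with no overlap. Over the 3 lines, siFLI1 levels ran from 74.4 to 112 CPM and siNeg levels from 27.7 to 204 CPM. Levels were not tested across lines, as CPM are scaled within a table. ALCAM fell in TC-32, at -1.35 log2 units (SE 0.0472, edgeR adjusted p = 1.47e-18), and rose by 1.61 log2 units (SE 0.0621, edgeR adjusted p = 9.54e-20) in TC-71 and 1.65 log2 units (SE 0.0450, edgeR adjusted p = 1.92e-13) in A673. The effect in TC-32 lay below that in A673 by 2.97 log2 units (edgeR adjusted p = 1.12e-26) and below that in TC-71 by 2.96 log2 units (edgeR adjusted p = 1.92e-25). Between A673 and TC-71 the difference was 0.00843 (95% interval -0.15 to 0.17, edgeR adjusted p = 0.981) and did not pass the test.

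MCAM (ENSG00000076706.16, chromosome 11, 119308529 to 119321521, minus strand) is a receptor for laminin and other ligands that marks pericytes, endothelium and melanoma. A673 libraries held 59.2, 58.96 and 59.9 CPM with siNeg and 296, 328 and 329 CPM with siFLI1. TC-71 libraries held 12.4, 11.96 and 11.7 CPM with siNeg and 22.96, 23.1 and 22.6 CPM with siFLI1. TC-32 libraries held 17.3, 17.5 and 18.2 CPM with siNeg and 19.3, 21.6 and 20.3 CPM with siFLI1. The siFLI1 libraries were higher throughout, widely so in A673 and barely so in TC-32. MCAM rose 2.42 log2 units (SE 0.0444, edgeR adjusted p = 2.55e-15) in A673, 0.93 log2 units (SE 0.0772, edgeR adjusted p = 6.89e-12) in TC-71 and 0.21 log2 units (SE 0.0743, edgeR adjusted p = 0.0130) in TC-32. The TC-32 call was lost without siNeg replicate 1 (log2 fold change 0.18, edgeR adjusted p = 0.0612), siNeg replicate 2 (0.19, edgeR adjusted p = 0.0511) or siFLI1 replicate 2 (0.16, edgeR adjusted p = 0.0759). Opposite-strand exons of CBL cover 6.86% of the exon bases of MCAM. CBL was also called, lower in each line, at -0.10 log2 units in A673, -0.58 in TC-32 and -0.56 in TC-71.

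THY1 (ENSG00000154096.13, chromosome 11, 119415476 to 119424985, minus strand) is a small glycoprotein anchored in the membrane by a lipid, found on fibroblasts and neurons. TC-32 had 47.6, 47.01 and 50.3 CPM with siNeg and 58.9, 68.9 and 65.1 CPM with siFLI1. TC-71 had 28.6, 25.7 and 26.4 CPM with siNeg and 23.2, 21.5 and 22.1 CPM with siFLI1. A673 had 63.2, 60.5 and 59.3 CPM with siNeg and 35.7, 41.1 and 38.7 CPM with siFLI1. The siFLI1 libraries were higher in TC-32 and lower in TC-71 and A673, without overlap. THY1 rose in TC-32 by 0.41 log2 units (SE 0.0602, edgeR adjusted p = 9.12e-07) and fell, at -0.27 log2 units (SE 0.0702, edgeR adjusted p = 0.000998) in TC-71 and -0.66 log2 units (SE 0.0511, edgeR adjusted p = 2.62e-08) in A673. The effects differed between TC-32 and A673 by 1.11 (edgeR adjusted p = 2.86e-14). Opposite-strand genes, among them THY1-AS1, share 12.5% of the exon bases of THY1. The counting's strand setting is not given in the sources used here, so reads of such partners cannot be told apart from those of the gene. THY1 and MCAM lie 94.0 kb apart on the minus strand of chromosome 11. Between them, RNF26 was lower in A673, TC-32 and TC-71 (-0.98, -1.40 and -1.19 log2 units), as was USP2 (-0.89, -1.28 and -0.27). C1QTNF5, also between them, rose in TC-32 and A673, with 1.78 and 2.76, from a mean of at most 0.771 CPM, and had a count of 0 in TC-71.

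NGFR (ENSG00000064300.8, chromosome 17, 49495293 to 49515008, plus strand) is the p75 receptor for all neurotrophins. In TC-32 it stood at 76.03, 73.4 and 82.2 CPM with siNeg and 88.2, 101 and 98.6 CPM with siFLI1. In TC-71 it stood at 58.2, 62.3 and 63.6 CPM with siNeg and 20.01, 19.5 and 17.97 CPM with siFLI1. In A673, NGFR stood at 21.9, 21.4 and 21.8 CPM with siNeg and 2.11, 2.21 and 2.11 CPM with siFLI1. Its siFLI1 libraries were the higher ones in TC-32 and the lower ones in TC-71 and A673, with no overlap. NGFR rose in TC-32 by 0.32 log2 units (SE 0.0571, edgeR adjusted p = 2.08e-05) and fell, at -1.68 log2 units (SE 0.0640, edgeR adjusted p = 6.10e-20) in TC-71 and -3.34 log2 units (SE 0.0600, edgeR adjusted p = 2.05e-15) in A673. The effects lay 3.69 apart between TC-32 and A673 (edgeR adjusted p = 1.48e-27) and 2.00 apart between TC-32 and TC-71 (edgeR adjusted p = 1.41e-20). Opposite-strand genes, among them NGFR-AS1, share 27.2% of the exon bases of NGFR, the largest such share among the 10. BDNF, a neurotrophin, fell in TC-32 from 4.91 to 1.27 CPM and rose in A673 from 0.130 to 9.22 CPM. SORT1, which forms a coreceptor with NGFR, rose in each line, by 0.54 in A673, 0.25 in TC-32 and 0.82 in TC-71 (log2).

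NES (ENSG00000132688.10, chromosome 1, 156668763 to 156677407, minus strand) codes for nestin, an intermediate filament protein of neural and other progenitors, and is not a surface protein. In TC-32, NES stood at 33.1, 34.3 and 31.4 CPM with siNeg and 68.4, 70.3 and 66.1 CPM with siFLI1. TC-71 held 33.6, 33.2 and 32.6 CPM and 54.8, 56.1 and 57.6 CPM in the same order. A673 held 55, 53.6 and 53.7 CPM with siNeg and 361, 407 and 394 CPM with siFLI1. The siFLI1 libraries were higher in each line with no overlap, most in A673. NES rose 1.05 log2 units (SE 0.0573, edgeR adjusted p = 1.29e-14) in TC-32, 0.76 log2 units (SE 0.0566, edgeR adjusted p = 5.73e-13) in TC-71 and 2.84 log2 units (SE 0.0459, edgeR adjusted p = 6.71e-16) in A673. The rise in A673 exceeded that in TC-71 by 2.04 log2 units (edgeR adjusted p = 6.54e-23) and that in TC-32 by 1.76 (edgeR adjusted p = 1.31e-21). Of 9 other intermediate filament genes, 5 rose and 1 fell among 7 tested in TC-32, 5 rose and 1 fell among 7 in TC-71, and 6 rose and 2 fell among 8 in A673. Over all genes tested, 41.3%, 36.8% and 36% were called higher in that order. DES, counted as risen in TC-32 and A673, had passed the filter there only through siFLI1. VIM (vimentin), with which nestin assembles, rose in each line, by 1.11 in A673, 0.27 in TC-32 and 2.10 in TC-71 (log2). INA (alpha-internexin) and NEFL (light neurofilament), both of neurons, rose in each line as well. The number of filament genes that fell in TC-71 was 2 without siFLI1 replicate 2. NEFH, the heavy neurofilament, fell in each, at -0.56 in A673, -1.13 in TC-32 and -1.02 in TC-71 (log2), and in TC-32 it passed the filter only through siNeg. GFAP, the filament of astrocytes, held at most 4 counts in any library.

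**Figure D2:**
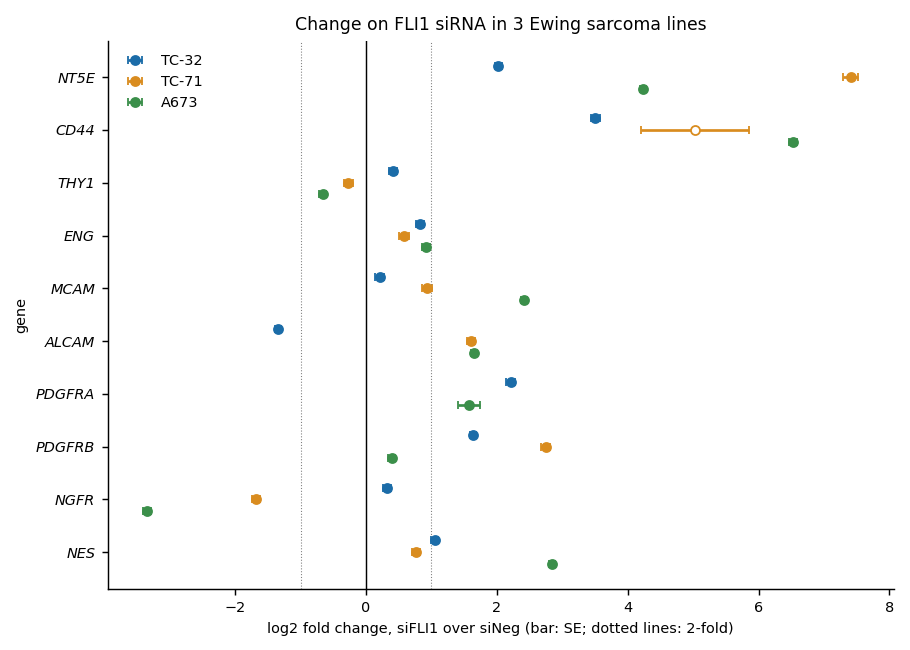
Log2 fold change of siFLI1 against siNeg for each of the 10 genes in TC-32, TC-71 and A673; bars are the SE and dotted lines mark 2-fold. The open symbol is CD44 in TC-71, which rests on 1 siNeg count, and PDGFRA in TC-71 is left out as not tested. ALCAM lies below 0 in TC-32 alone, and THY1 and NGFR lie above 0 in TC-32 alone.

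Between lines, the effect of siFLI1 differed for 9 of 10 members from TC-32 to A673, beside 62.1% of 19591 genes tested. It differed for 8 of 10 from TC-32 to TC-71, beside 53.6%, and for 7 of 10 from A673 to TC-71, beside 51.7%. ALCAM, THY1 and NGFR were called in opposite directions in TC-32 and A673, which held for 12% of genes, and in TC-32 and TC-71, which held for 6.75%. Between A673 and TC-71, 0 members were, beside 8.96% of genes. The differences of CD44 and PDGFRA from TC-71 did not pass the test. For CD44, the difference of TC-32 from TC-71 was -1.69 (95% interval -4.04 to 0.66, edgeR adjusted p = 0.159) and that of A673 from TC-71 was 1.30 (-2.00 to 4.60, edgeR adjusted p = 0.641), which limma-voom called (2.14, limma-voom adjusted p = 0.00752). For PDGFRA, the difference of TC-32 from TC-71 was 0.10 (-1.15 to 1.34, edgeR adjusted p = 0.984). The difference of A673 from TC-71 was -0.58 (-1.80 to 0.65, edgeR adjusted p = 0.437). The wide intervals of both genes follow the few counts in TC-71.

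Levels of different genes were compared as CPM per kb of merged exon. In TC-32 with siNeg, ALCAM was highest at 27.2 CPM per kb, then NGFR, NT5E, ENG, PDGFRB, THY1, NES, MCAM, PDGFRA and CD44 at 0.911, and no neighbours in that order overlapped. With siFLI1, NT5E led at 47.3 CPM per kb and MCAM was last at 2.75. PDGFRB overlapped NGFR there, and ALCAM overlapped CD44. In TC-71 with siNeg, NGFR led at 14.8 CPM per kb, followed by NES, ENG, ALCAM, THY1, PDGFRB, MCAM, NT5E at 0.126, PDGFRA and CD44. ALCAM overlapped THY1, and PDGFRA overlapped CD44. With siFLI1, NT5E was first at 21.5 CPM per kb, then PDGFRB, ALCAM, NES, ENG, NGFR, THY1, MCAM, CD44 at 0.0573 and PDGFRA at 0.0412. THY1 overlapped MCAM, and CD44 overlapped PDGFRA. In A673 with siNeg, PDGFRB led at 16.4 CPM per kb, followed by ENG, NES, NT5E, THY1, MCAM, NGFR, ALCAM, CD44 at 0.348 and PDGFRA at 0.0356, with NT5E and THY1 overlapping. With siFLI1 the order was NT5E at 167, NES at 69.5, MCAM at 42.8, CD44 at 32.2, ENG, PDGFRB, ALCAM, THY1, NGFR at 0.517 and PDGFRA at 0.107 CPM per kb, with ENG and PDGFRB overlapping. NT5E was thus first of the 10 in the siFLI1 libraries of each line and in no siNeg group.

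**Figure D3:**
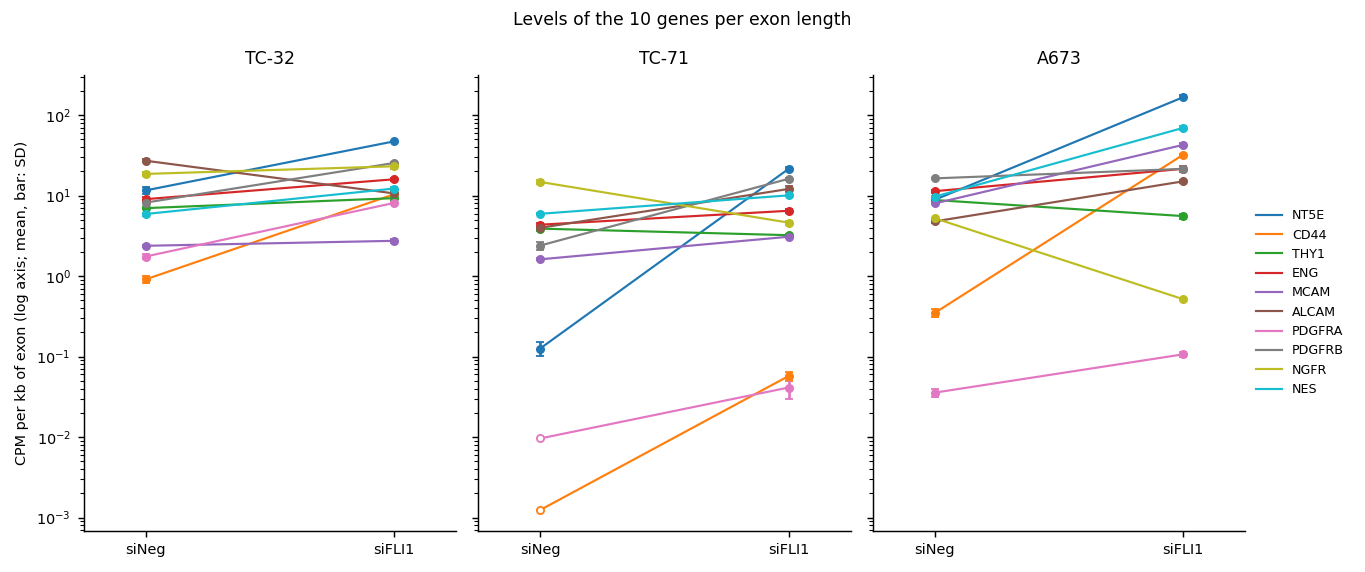
Mean level of each of the 10 genes as CPM per kb of exon on a log axis, with siNeg at the left and siFLI1 at the right of each panel; bars are the SD over 3 libraries. Open circles mark CD44 and PDGFRA in TC-71 with siNeg, drawn without bars because they rest on 1 and 7 counts. The line of NT5E ends highest in all 3 panels, and those of CD44 and PDGFRA in TC-71 stay under 0.1.

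Outside the 10, a list of 14 other surface markers of mesenchymal stromal cells was examined. It was chosen with earlier results of these data known, so its counts beside all genes are descriptions. In TC-32, 12 of 12 tested rose, beside 41.3% of all genes tested. In TC-71, 11 of 12 rose and 0 fell, beside 36.8% called higher over all genes, and in A673, 11 of 14 rose and 0 fell, beside 36%. Of those that rose, 0 in A673, 3 in TC-32 and 2 in TC-71 had passed the filter on low counts only through their siFLI1 libraries, so being high there was a condition of being tested. The median log2 fold changes of those tested were 2.21, 1.05 and 1.02. ITGB1, the beta-1 integrin chain, rose in each line, by 1.29 in A673, 1.11 in TC-32 and 1.16 in TC-71 (log2). VCAM1, an adhesion molecule of marrow stroma and 1 of those 3, rose in TC-32 from 0.302 to 76.5 CPM. It rose in A673 from 3.09 to 9.28 CPM and was not called in TC-71 (edgeR adjusted p = 0.108). FAP, a serine protease of activated fibroblasts, rose in TC-71 from 7.19 to 65.6 CPM. It also rose in TC-32, from 0.0281 to 2.42 CPM, having passed the filter there only through siFLI1, and in A673, from 0.355 to 1.14 CPM. Its log2 fold changes were 3.20 in TC-71, 6.26 in TC-32 and 1.68 in A673. CSPG4 (NG2), a proteoglycan of pericytes, rose in A673 from 1.06 to 27.1 CPM, and with siFLI1 it reached 5.60 CPM in TC-32 and 2.89 CPM in TC-71.

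The list of 16 neural crest and Schwann lineage genes was mixed, with 4 higher and 8 lower of 14 tested in TC-32, 6 and 5 of 13 in TC-71, and 4 and 8 of 14 in A673. Of all genes tested in these lines, 41.3%, 36.8% and 36% were called higher and 40.1%, 35% and 35% lower, in the same order. Median log2 fold changes of the list were -0.36, 0.11 and -0.33. SNAI2 (Slug), a repressor that drives the exit of crest cells from the neural tube and also marks mesenchyme, rose in each line, by 2.65 in A673, 5.07 in TC-32 and 2.96 in TC-71 (log2). FOXD3 and PAX7, both specifiers of the crest, fell in each line. PAX7 changed by -1.30 log2 units in A673, -1.45 in TC-32 and -2.28 in TC-71. TFAP2B and MSX1 also fell in each line. TFAP2A and MSX2 rose in each line, TFAP2A by 0.79 in A673, 1.24 in TC-32 and 0.44 in TC-71 (log2). Of the crest genes called in TC-32, 3 that were lower, PAX7 among them, had passed the filter only through siNeg, and in TC-71 this held for 1 that was lower, while 3 that were higher had passed only through siFLI1. SOX10, the defining factor of crest and glia, had a count of 0 in all 18 libraries. NGFR moved with PAX7 and FOXD3 in TC-71 and A673 and opposite to them in TC-32. The reverse held against SNAI2, TFAP2A and MSX2, so which genes NGFR went with depends on the crest genes named. NES rose in each line.

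**Figure D4:**
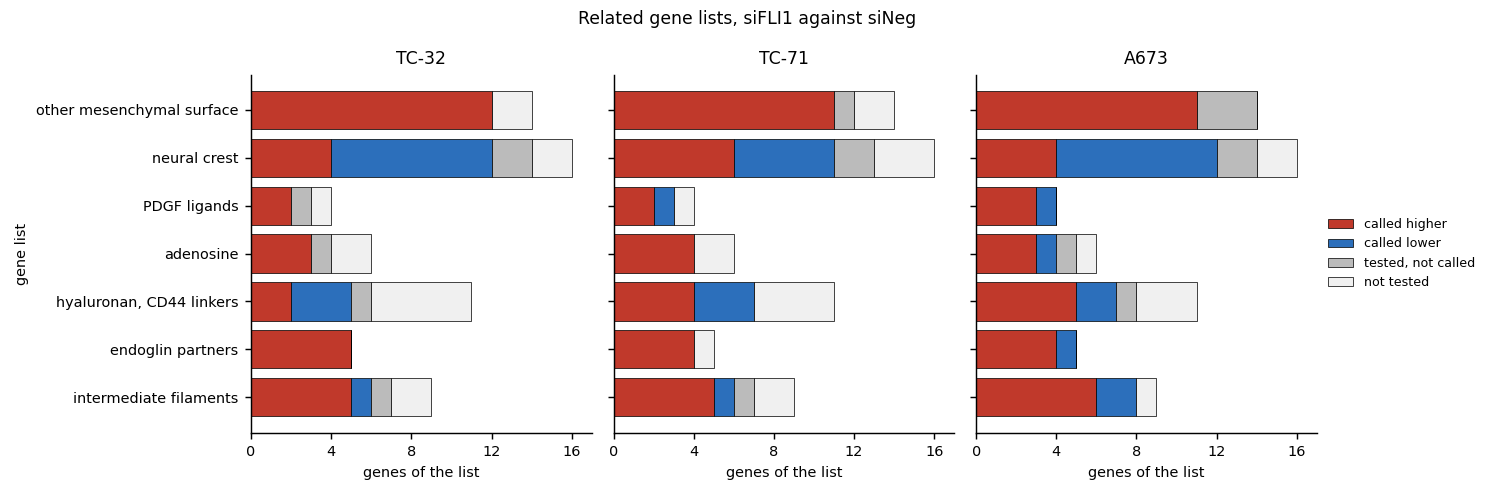
Number of genes of each related list shown that were called higher, called lower, tested without a call or not tested, in TC-32, TC-71 and A673. The bar of other mesenchymal surface markers holds 0 genes called lower in all 3 panels, and that of neural crest genes holds 8, 5 and 8.

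Genes whose 3 log2 fold changes lay nearest to those of a member were sought among 10874 genes tested throughout and averaging at least 1 on the log2 CPM scale per line, by the Euclidean distance over the 3 values. ENG had the nearest partner, AEBP1, at a distance of 0.039, with log2 fold changes of 0.79, 0.57 and 0.90. THY1 lay 0.054 from KCTD7, PDGFRB 0.099 from EDNRA, an endothelin receptor, and MCAM 0.16 from RP6-99M1.2. NES lay 0.34 from KAZN, NGFR 0.47 from XG and ALCAM 0.56 from SEMA3A, a guidance ligand that likewise was lower in TC-32 (-0.83) and higher in TC-71 (1.79) and A673 (1.67). NT5E and CD44 had no partner as near, but the distance was not scaled to the size of the change. CD44 itself lay under the level limit of the search in TC-71, so genes as low there were left out. The nearest to NT5E was CTGF, a matricellular protein, at 1.02, and the nearest to CD44 was LOX, lysyl oxidase, at 1.50, with CD44 in TC-71 resting on 1 siNeg count. Distance over 3 values is a description and carries no test.

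Markers of other cells were checked in the same libraries, since several members also mark blood vessels, blood or epithelium. Of 8 blood cell markers, 2 rose and 1 fell among 4 tested in TC-32, 0 rose and 1 fell among 3 in TC-71, and 2 rose and 1 fell among 4 in A673. Those that rose, CD34 and ITGAM in TC-32 and CD34 and CD14 in A673, had passed the filter on low counts only through siFLI1. CD79A, which fell in TC-32, had passed it there only through siNeg. The summed level of all 8 markers was 5.54 to 5.62 CPM with siNeg and 1.47 to 2.01 CPM with siFLI1 in A673, 1.28 to 1.42 and 19.1 to 20.5 CPM in TC-32, and 4.57 to 5.34 and 1.35 to 2.14 CPM in TC-71. CD34 made up most of that sum in TC-32 with siFLI1, and CD79A was the only marker called lower in any line. PTPRC (CD45), the pan-leukocyte marker, held at most 10 counts in any library and HLA-DRB1 held 0. Of 6 endothelial markers, 2 rose and 2 fell among 4 tested in TC-32, the only one tested fell in TC-71, and 4 rose and 1 fell among 5 in A673. Their sum was 5.62 to 6.42 CPM with siNeg and 29.2 to 32.5 CPM with siFLI1 in A673, 33.5 to 34.6 and 5.18 to 6.55 CPM in TC-32, and 2.64 to 2.90 and 0.862 to 1.68 CPM in TC-71. VWF held at most 22 counts in any library. KDR made up most of that sum in TC-32 with siNeg and in A673 under either siRNA, and CLDN5 most of it in TC-71 with siNeg. PECAM1 in TC-32 passed the filter only through siNeg, and CDH5 in TC-32 and TEK and VWF in A673 only through siFLI1. In TC-32, KDR and PECAM1 fell while CDH5 and TEK rose, so the sum does not speak for each marker. MCAM and ENG are also carried by endothelium, and the part of these markers in their rise was not tested. Of 6 epithelial markers, 2 rose and 1 fell among 3 tested in TC-32, 1 rose among 2 in TC-71 and 2 rose among 3 in A673. Their sum was 279.6 to 300.4 CPM with siNeg and 344 to 389.7 CPM with siFLI1 in A673, 88.3 to 102 and 117 to 133 CPM in TC-32, and 135 to 136 and 356 to 368 CPM in TC-71. KRT18 made up most of that sum, and EPCAM stayed under 1 CPM on average in each group. CDH1 in TC-32 and KRT5 in A673, counted as risen, had passed the filter only through siFLI1. Of 6 Ewing sarcoma markers, 6 of 6 were called lower in TC-32 and A673 and 5 of 5 tested in TC-71. CD99, the surface marker used in diagnosis, is listed at 0 in every TC-71 library, and the gene lies in the pseudoautosomal region, so its level in that table is not used here.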

How the data were processed

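Libraries were made from messenger RNA with a stranded kit, per the labels' protocols. The tables deposited for A673 and TC-32 hold expected counts per gene, made with RSEM by the tables' names, and these were rounded to whole numbers. The table deposited for TC-71 holds whole counts per gene, made with Subread by its name. The submitters' processing notes name cutadapt 4.4, STAR 2.7.3, featureCounts, Subread 2.0.3, limma 3.38.3 and GRCh38, without saying which table each made. The strand setting and annotation release are not given in the sources used here. A further line and a further siRNA in the protocols were not analysed here.

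The 45 rows that are second copies of pseudoautosomal genes, with 531748 counts in all, were added to the first copy, leaving 58336 genes. In R 4.3.3, the 6 libraries of a line were fitted with edgeR 4.0.16: filterByExpr by group, TMM scaling, robust quasi-likelihood fit and F-test of siFLI1 against siNeg, with Benjamini-Hochberg adjustment over all genes tested in that line. The threshold for a call was an adjusted p of 0.05. Differences between lines were interaction contrasts in 1 edgeR model over all 18 libraries, adjusted over 19591 genes. Log2 fold changes use the prior count of 0.125, so they and the differences from the joint model can deviate slightly. CPM are TMM-scaled within a table. Levels per kb divide by merged exon length in GENCODE release 44. Intervals from counts are exact, at 95%, and cover only counting error, as no molecular identifiers were used. Between replicates of a group, chi-square per degree of freedom was at least 2.46, so no pair agreed within sampling noise. The procedure was also run on simulated data with far fewer changed genes than were called here, which does not test it under so broad a change.

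The 10 members are named throughout. Single genes of the related lists, and genes beside MCAM and THY1, were picked for their known role after their values were seen, beside the count over the whole list, except BDNF and SORT1, whose list is not reported here. The members and lists were chosen with earlier results of these data known. The nearest 2 genes to each member by fold change were sought, and the nearest is given. Each result was recomputed with DESeq2 1.42.0, with limma-voom from limma 3.58.1, with RLE factors or library size alone, without the filter or with a filter at a mean of 10 counts, on unrounded expected counts, with a replicate block and with each library left out.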

Additional observations from a re-analysis of the deposited data

Results flagged for a closer look

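Of 30 differences in the effect of siFLI1 between lines, for 10 genes over 3 pairs of lines, 24 passed the test of the difference itself (edgeR interaction contrast, Benjamini-Hochberg adjusted p under 0.05). Values are differences of log2 fold changes, and line, table and the size of the fall of FLI1 cannot be told apart in any of them. In those with A673, medium cannot be told apart from these either, while TC-32 and TC-71 shared a medium. The effect in TC-32 lay below that in A673 for NT5E (-2.18), CD44 (-2.99), MCAM (-2.18), ALCAM (-2.97) and NES (-1.76). It lay above that in A673 for THY1 (1.11), PDGFRA (0.67), PDGFRB (1.28) and NGFR (3.69). Against TC-71, the effect in TC-32 was lower for NT5E (-5.40), MCAM (-0.73), ALCAM (-2.96) and PDGFRB (-1.11) and higher for THY1 (0.68), ENG (0.24), NGFR (2.00) and NES (0.28). That of ENG lost its call in 13 of 26 alternatives. The effect in A673 lay below that in TC-71 for NT5E (-3.22), THY1 (-0.43), PDGFRB (-2.39) and NGFR (-1.69), and above it for ENG (0.31), MCAM (1.45) and NES (2.04). For ALCAM, THY1 and NGFR the groups compared with TC-32 moved in the opposite direction, and for the other members the directions were shared and the sizes differed.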

How the results depend on the processing

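Of 396 recomputed fold changes of the 10 genes, 0 changed direction and 393 kept their side of the threshold. The exceptions were all MCAM in TC-32, which lost its call without any of 3 libraries (range over single left-out libraries 0.16 to 0.24). PDGFRA in TC-71, not tested otherwise, was 2.07 with no low-count filter and 1.46 to 3.10 without single libraries, where it passed the filter only through its siFLI1 libraries, so these values are descriptions. All 304 recomputed counts of members or genes stayed within 1.5 times. Genes called numbered 12339 to 14031 in A673, 12685 to 14674 in TC-32 and 11502 to 13141 in TC-71. Library size alone moved the median of all genes in A673 to -0.11 and the share higher among called genes from 50.7% to 40.9%, and no member changed direction under it.

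Of 780 recomputed differences between lines, 747 kept direction and call. The 19 that changed sign were all of differences that had not passed the test. With library size alone they were ENG in TC-32 against A673 (0.052) and ALCAM in A673 against TC-71 (-0.050), the latter also with a mean of at least 10 counts (-0.0036) and without single libraries (-0.047 to 0.081). PDGFRA in TC-32 against TC-71 was -0.24 with limma-voom and ranged from -0.98 to 0.71 without single libraries, and in A673 against TC-71 from -1.65 to 0.034. CD44 in A673 against TC-71 ranged from -1.29 to 1.88. The cause was not tested. Of 984 recomputed list counts, 13 moved by more than 1.5 times, each by 1 or 2 genes.

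The replicate numbers did not pair the libraries (correlations of same-numbered libraries from -0.070 to 0.063). With the number as a replicate block, 12422 genes were called in A673, 13033 in TC-32 and 12048 in TC-71, and the difference of ENG between TC-32 and TC-71 was 0.24 (edgeR adjusted p = 0.0640), the only one of the 10 genes' calls to be lost. Depth limits CD44 and PDGFRA in TC-71, where fewer than 10 siNeg counts were seen.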

Other observations

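CD34, a surface marker of blood stem cells, vessels and some stromal cells that cultured mesenchymal stromal cells usually lack, was higher with siFLI1 in TC-32, going from 0.245 ± 0.0802 to 18.2 ± 0.591 CPM (± SD over 3 libraries), by 6.20 log2 units (SE 0.171, edgeR adjusted p = 1.08e-20). Its 5 to 8 siNeg counts per TC-32 library lay under the filter on low counts, which it passed only through the siFLI1 libraries. Its A673 level rose from 0.0139 to 0.260 CPM, where the same holds, and in TC-71 it had a count of 0 in every library. KDR, the main VEGF receptor of endothelium, fell in TC-32 from 30.8 to 1.87 CPM and rose in A673 from 5.08 to 28.1 CPM, and it had a count of 0 in every TC-71 library. MME (CD10), a peptidase of stromal and lymphoid progenitors, rose in TC-32 from 6.58 to 105 CPM and in A673 from 2.59 to 25.96 CPM, and held at most 1 count in any TC-71 library. DES (desmin), the muscle filament, rose in TC-32 from 0.312 to 5.94 CPM and in A673 from 0.0139 to 0.418 CPM, and it too passed the filter in both lines only through siFLI1.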
